A study of Mus musculus with 3 samples.

Results

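Kinesins are motor proteins that walk along microtubules with cargo, slide microtubules in the spindle, or take microtubule ends apart. The genes described here are all those whose symbol is Kif and a number with optional letters, leaving out names that end in -ps and antisense names. This gave 38 of the 36593 genes in the count tables, and they were chosen by name, not by a measured value. By role, 13 act in the spindle, on chromosomes or in cytokinesis, 9 in cilia, flagella or centrioles, 12 carry cargo or organelles, and 4 are other or non-motor members. One of the 4, Kif1bp, matches the naming rule but encodes a protein that binds kinesins and is not itself a motor.

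UMI counts (unique molecular identifiers, each standing for 1 captured transcript) were taken from 3 mouse testis libraries on C57BL/6. The study names 3 mice per condition, without stating how they were combined into 1 library. The Tomato-negative library held testicular cells of 8-week-old Ddx4-creER; R26tdTomato mice, in which tamoxifen turns on the Tomato label in Ddx4-expressing germ cells, sorted to remove labelled cells. The cKO library came from Scf fl/fl mice aged 6 weeks that also carried Amh-cre, whose Cre acts in Sertoli cells and there deletes Scf (Kitl, stem cell factor, the ligand of Kit). The control library came from Scf fl/fl mice of the same age without Cre. Both were sorted to deplete haploid spermatids before loading. With 1 library per condition there was no replicate check, so no p-value is given, and intervals cover counting error only.

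In a testis, spermatogonia divide by mitosis and stay joined by cytoplasmic bridges left by incomplete cytokinesis, spermatocytes pass through meiosis, and spermatids then reshape their nucleus along a microtubule manchette and build a flagellum. Spindle kinesins serve the divisions, whereas kinesin-2 motors carry intraflagellar transport trains and are also known for work in spermatids. Sertoli cells, which span the tubule wall, hold long microtubule tracks of their own.

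After cell limits, 5085 Tomato-negative, 7016 cKO and 5975 control cells remained, and the median cell held 10214, 6326.5 and 5911 UMIs. Clusters were named from marker lists, and every class below is called only "like" its type. The 8 germ classes ran from stem-like, progenitor-like and differentiating-like spermatogonia through preleptotene-like cells, early prophase-like and pachytene-like (and later) spermatocytes to round-like and elongating-like spermatids, and there were 7 somatic classes. Classes under 30 cells in a library were left out there. This removed early prophase-like cells from the Tomato-negative library (22 cells), all classes after preleptotene from the cKO library (8, 14, 9 and 11 cells), and Sertoli-like cells from the cKO (28 cells) and control (5 cells) libraries. The libraries shared 9 barcodes between Tomato-negative and control cells, 13 between Tomato-negative and cKO cells and 15 between cKO and control cells. Kitl, the deleted gene, had 15 counts in the 28 cKO Sertoli-like cells (59.0 CPM, 95% interval 33.0 to 97.3), against 11 counts in the 5 control ones (259.7 CPM, 129.7 to 464.7) and 777 counts in the 622 Tomato-negative ones. Whether these 3′ counts lie inside the deleted part was not checked, so they do not test the deletion.

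Some cells went against their class name, and transcripts of haploid cells were counted in every class. The 814 cKO cells in the differentiating-like class had 35.1 CPM of Kit (the gene's counts scaled to the same total of UMIs in every class), against 166 CPM in the 1593 control cells, and 199 CPM of Zbtb16, a gene of undifferentiated spermatogonia, against 39.3 CPM. Their Gfra1 level, a stem cell marker, was 21.3 CPM, against 0.0864 CPM in control. The class is therefore given with and without these cells below. Prm1, which is made by haploid cells, was 71886 CPM in Tomato-negative and 39741 CPM in control elongating-like cells, yet 74.1 to 607 CPM in all other Tomato-negative classes, 36.6 to 249 CPM in all other control classes and 0.516 to 33.1 CPM in all cKO classes. The germ gene Ddx4 was 19.5 to 58.7 CPM in Tomato-negative, 5.13 to 100.3 CPM in cKO and 21.1 to 122 CPM in control somatic classes.

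Promoter letters were set beside the levels, since spindle genes are known to share elements that tie them to the cell cycle. RefSeq windows of 300 bases (250 before to 50 after each gene start, build GRCm38.p6) matched 31 of the 38 members and 27025 genes in all. The following motifs were searched on both strands, as exact letters. TTTGAA, the core of the cell cycle homology element, stood in the windows of 9 of 12 spindle members (75%), in 1 of 8 cilium members and in 0 of 8 cargo members, against 18.1% of all windows. CCAAT stood in 7 of 12 spindle members, 5 of 8 cilium members and 1 of 8 cargo members, against 37.9% of all. GTTGCC, a part of the X-box bound by RFX factors, stood in 4 of 8 cilium members (Kif3a, Kif9, Kif17 and Kif24), 2 of 8 cargo members and 2 of 12 spindle members, against 12.7% of all. TGACGT, a part of the cyclic AMP response element, stood in 1 of 8 cilium members, 1 of 8 cargo members and 2 of 12 spindle members, against 7.64% of all, so no group led in it. TTTGAA and CCAAT do not overlap each other. These are matches of letters and no evidence of binding.

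Shown here are 4 promoters, each as 150 bases within the 250 upstream of the RefSeq start, read on the gene's own strand, with motif matches in capitals. Kif11 (chr19:37376232-37376381, plus strand) and Kif18b (chr11:102925125-102925274, minus strand) stand for spindle genes, one high in spermatogonia and one high in pachytene-like cells, and Kif2b (chr11:91577559-91577708, minus strand) and Kif17 (chr4:138262082-138262231, plus strand) for genes that appear in spermatids.
Kif11: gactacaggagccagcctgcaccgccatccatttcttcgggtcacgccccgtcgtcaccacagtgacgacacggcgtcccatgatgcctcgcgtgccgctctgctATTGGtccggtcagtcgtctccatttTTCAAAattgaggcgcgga
Kif18b: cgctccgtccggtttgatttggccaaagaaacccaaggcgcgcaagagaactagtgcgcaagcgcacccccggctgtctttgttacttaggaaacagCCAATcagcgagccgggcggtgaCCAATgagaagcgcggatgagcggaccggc
Kif2b: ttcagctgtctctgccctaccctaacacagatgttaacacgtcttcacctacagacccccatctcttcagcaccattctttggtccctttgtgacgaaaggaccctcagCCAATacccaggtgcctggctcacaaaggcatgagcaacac
Kif17: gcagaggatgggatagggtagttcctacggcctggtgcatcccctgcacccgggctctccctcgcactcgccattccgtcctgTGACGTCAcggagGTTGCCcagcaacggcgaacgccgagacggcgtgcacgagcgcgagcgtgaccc
The Kif11 stretch holds CCAAT and TTTGAA, both on the other strand, toward its 3′ end. The Kif18b stretch holds CCAAT at 2 places, and the Kif2b stretch at 1 place. Only the Kif17 stretch among these 4 holds TGACGT, read on both strands of the palindrome, with GTTGCC after it.

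Across the classes, 33 of the 38 members were highest in a germ class and 5 in a somatic class, both in the Tomato-negative and in the control library. The 5 were Kif1c, Kif5b, Kif13a and Kif21b in both, with Kif21a in the Tomato-negative and Kif28 in the control library. Kif28 rested there on 1 count. Among germ classes alone, 33 of 38 had their highest level in the same class of both libraries, and the exceptions were Kif1c, Kif2b, Kif5b, Kif9 and Kif17. No share of all genes is set beside these counts, so they do not set kinesins apart from other genes. Class names bear on these counts, since a cluster of 2028 dividing cells led by Hist1h2ap, Esx1 and Mki67 was named differentiating-like here, whereas at the finer resolution a cluster of 1610 cells led by those genes was named preleptotene-like. The differentiating-like class was highest for 9 members (Kif3a, Kif4, Kif5a, Kif7, Kif11, Kif14, Kif20a, Kif20b and Kif22), preleptotene-like cells for 7 (Kif1b, Kif13b, Kif15, Kif16b, Kif18a, Kif23 and Kif24) and pachytene-like cells for 6 (Kif2a, Kif3b, Kif6, Kif18b, Kif19a and Kif28). Elongating-like cells were highest for 4 (Kif1a, Kif2c, Kif21b and Kif27), stem-like cells for 3 (Kif3c, Kif13a and Kif21a), progenitor-like cells for 3 (Kif5c, Kif26a and Kif26b) and round-like cells for Kif1bp. All members but Kif28 had at least 100 counts in all, up to 103786 for Kif2a. A 3′ UMI counts 1 end of a transcript, so CPM was not divided by gene length, and levels are compared within a gene only.

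**Figure D1:**
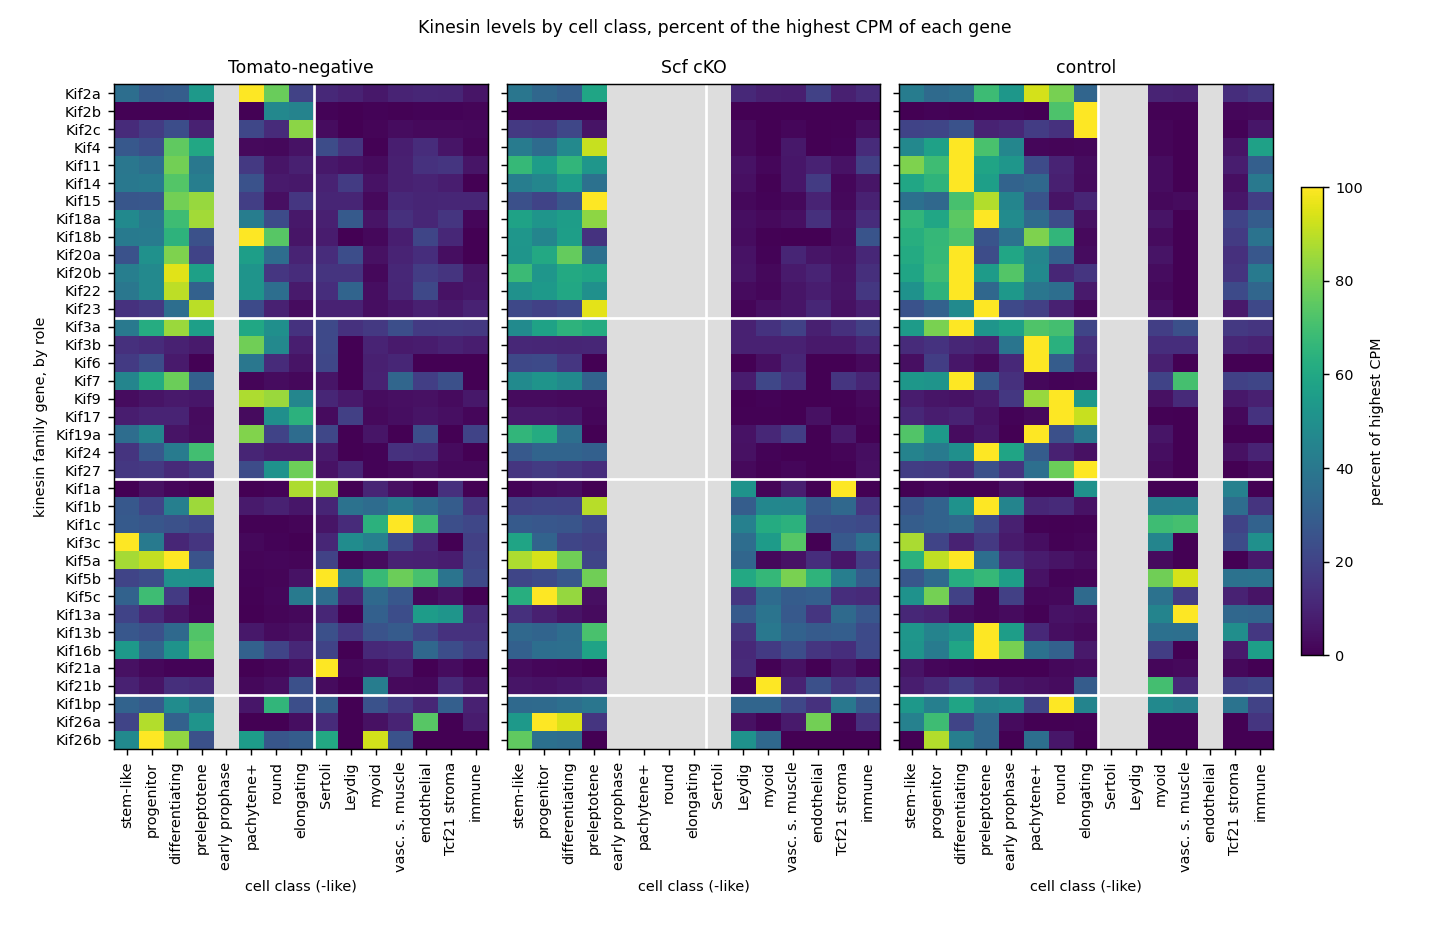
Levels of 37 kinesin family genes (rows, by role, divided by white lines) in 15 cell classes (columns, germ classes left of the white line) of the Tomato-negative, cKO and control libraries, each as a percent of the gene's highest CPM in any library. Grey columns had under 30 cells. Most rows peak left of the line, and Kif21a, Kif5b, Kif1c and Kif13a are among the few that peak right of it.

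Stages were compared as the ratio of CPM of a later class over an earlier one within a library. A gene was called where the ratio was at least 2-fold in either direction and its 95% interval left out 1, among genes with at least 20 counts over both sums. Members are counted where both libraries made the call, whereas the shares of all genes are those of each library, so the members' counts meet a stricter rule.

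From stem-like to progenitor-like cells 0 members were called higher and 1, Kif3c, lower in both libraries, where 3.3% (Tomato-negative) and 2.48% (control) of all genes measured were called higher and 3.49% and 3.02% lower. Kif3c, a kinesin-2 subunit best known from neurons, was 9.58 CPM in progenitor-like and 23.2 CPM in stem-like Tomato-negative cells, 7.39 and 13.5 CPM in cKO and 4.78 and 20.3 CPM in control cells. From progenitor-like to differentiating-like cells 1 member (Kif15) was called higher and 5 (Kif3c, Kif5c, Kif6, Kif19a and Kif26a) lower in both libraries. Of all genes 7.97% and 3.3% were called higher at this step and 16.8% and 12.3% lower. By library, 8 members were called higher and 6 lower of 36 in Tomato-negative cells, and 1 and 6 of 35 in control cells. The median log2 ratio of the members at this step was 0.45 in Tomato-negative and 0.28 in control cells, against -0.03 and -0.00 over all genes.

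Of the 13 spindle and cytokinesis members, 9 had their highest germ level in differentiating-like or preleptotene-like cells of both libraries, and Kif2a, Kif2b, Kif2c and Kif18b had it in later classes. Kif15, which helps Kif11 keep the spindle bipolar, was the member called higher in differentiating-like cells of both libraries: 175 CPM, against 60.1 CPM in progenitor-like cells, in the Tomato-negative library (2.91-fold, 2.65 to 3.20), and 157 CPM, against 75.1 CPM, in control (2.1-fold, 1.87 to 2.35). In the cKO library it was 59.7 CPM in the differentiating-like and 44.6 CPM in the progenitor-like class. Of 13 spindle members 5 were called higher at this step in Tomato-negative cells (Kif4, Kif11, Kif15, Kif20b and Kif23) and 1 in control cells, and none was called lower in either. Mki67, a marker of dividing cells, moved the same way, at 605 CPM in differentiating-like and 171 CPM in progenitor-like Tomato-negative cells, and 677 and 356 CPM in control. Of the 7 proliferation genes listed, 4 were called higher in Tomato-negative and 1 in control cells. The part of cell division in these kinesin values was not tested.

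Kif11, the plus-end motor that pushes spindle poles apart, was 91.7, 84.5, 181, 91.7, 37.8 and 13.1 CPM from stem-like to round-like Tomato-negative cells, with early prophase left out. In cKO cells it was 154, 127, 152 and 121 CPM from stem-like to preleptotene-like cells, and in control cells 186, 158, 230, 135, 120, 52.3, 22.7 and 7.53 CPM over the 8 germ classes. The Tomato-negative and control series peaked in differentiating-like cells and were lowest among spermatids, whereas the cKO series had no such peak. Kif20b, a motor of late cytokinesis, was 106, 216 and 129 CPM in progenitor-like, differentiating-like and preleptotene-like Tomato-negative cells, 119, 138 and 132 CPM in cKO and 155, 227 and 124 CPM in control cells. Kif14, another cytokinesis motor, was highest in differentiating-like cells at 47.4 and 64.8 CPM in the Tomato-negative and control libraries. Kif18a, the kinesin-8 that dampens chromosome movement at the metaphase plate, was highest in preleptotene-like cells at 103, 99.1 and 120 CPM in the Tomato-negative, cKO and control libraries. Kif4, a chromosome-bound motor that partners the midzone protein Prc1, lies on chromosome X. It was 114 CPM in differentiating-like, 90.9 CPM in preleptotene-like and 4.04 CPM in pachytene-like Tomato-negative cells. In control cells it was 152, 108 and 2.92 CPM in the same order, with 69.8 CPM in early prophase-like cells between. Its pachytene-like level was thus 0.0444 times (0.0364 to 0.0539) and 0.0271 times (0.0218 to 0.0334) its preleptotene-like level in the Tomato-negative and control libraries. A copy named Kif4-ps exists, so reads may be split between them and this value is uncertain.

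Kif23 was among the members highest in preleptotene-like cells. Kif23 is the motor subunit of centralspindlin, the complex that builds the midbody and sits in the intercellular bridges of germ cells. It was 416 CPM in preleptotene-like and 168 CPM in differentiating-like Tomato-negative cells (2.48-fold, 2.35 to 2.63), and 464 and 222 CPM in control cells (2.09-fold, 1.97 to 2.22). In the cKO library it was 445 CPM in preleptotene-like cells (interval 386 to 511) and 102 CPM in the differentiating-like class. It was the member called higher at this step in both libraries, where 12.4% and 14.1% of all genes were called higher, and 8 members were called lower (Kif2c, Kif5a, Kif5c, Kif7, Kif17, Kif18b, Kif20a and Kif22), where 24.7% and 24.9% were. Kif2c was 30.6 and 79.4 CPM in Tomato-negative preleptotene-like and differentiating-like cells, and 32.8 and 85.0 CPM in control, and Kif17 was 3.55 and 12.1 CPM, and 5.62 and 11.4 CPM. Other late-division motors moved the opposite way to Kif23. Kif20a, which brings Aurora B to the midzone, was 19.4 CPM in preleptotene-like and 77.2 CPM in differentiating-like Tomato-negative cells, and 22.2 and 95.9 CPM in control. Kif22, a motor on chromosome arms, was 21.8 and 63.3 CPM, and 23.6 and 70.4 CPM, in the same order. Mki67 in these classes was 358 and 605 CPM in Tomato-negative and 623 and 677 CPM in control cells.

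**Figure D2:**
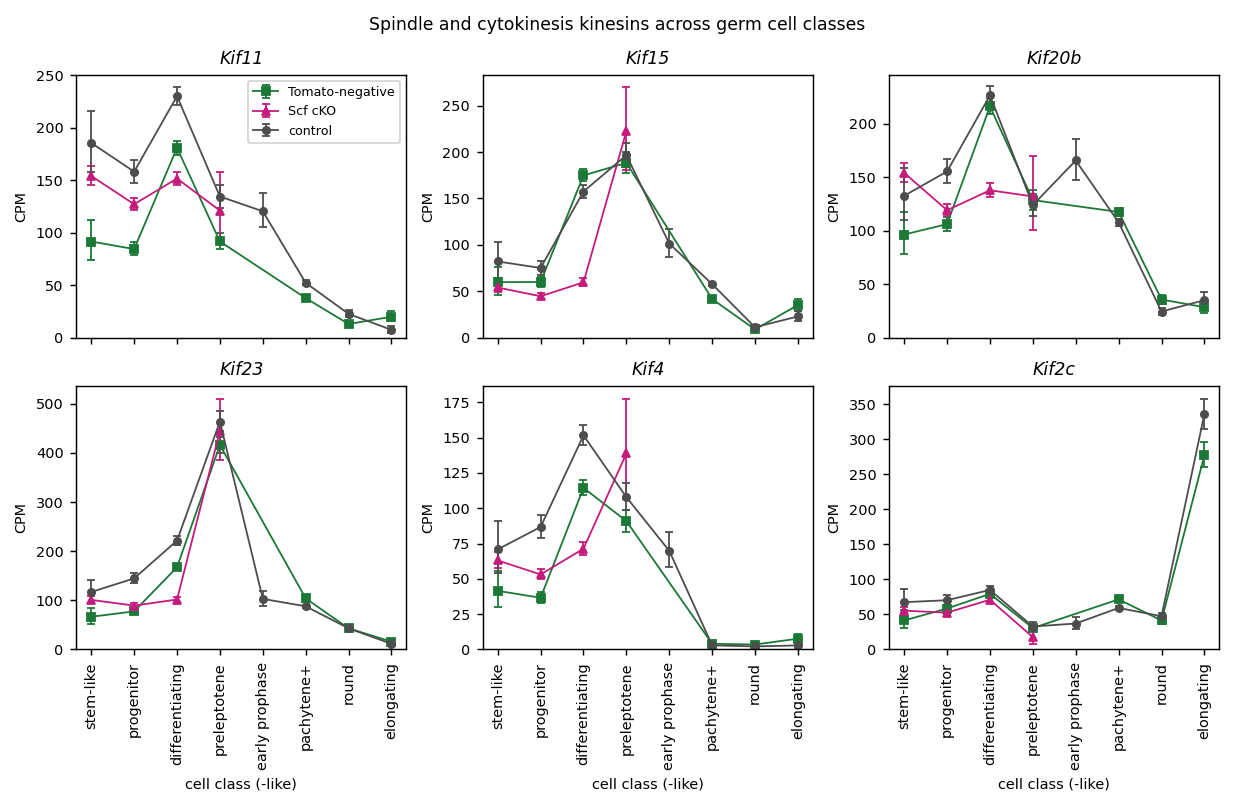
Levels (CPM, y axis) of 6 spindle and cytokinesis kinesins across the germ classes (x axis, early to late) in the Tomato-negative, cKO and control libraries. Bars are exact Poisson 95% intervals of the count, and a line passes over a class with under 30 cells. Kif15 and Kif23 peak in preleptotene-like cells, Kif11, Kif20b and Kif4 of the Tomato-negative and control libraries in differentiating-like cells, and Kif2c in elongating-like cells at 277 and 336 CPM.

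Early prophase-like cells could be compared in the control library only, where 4 members were called higher than in preleptotene-like cells (Kif3b, Kif5c, Kif9 and Kif20a) and 8 lower (Kif1b, Kif1c, Kif5a, Kif17, Kif18a, Kif21b, Kif23 and Kif26a), against 14.7% of all genes higher and 16.9% lower. From early prophase-like to pachytene-like cells 6 were called higher (Kif3b, Kif6, Kif9, Kif18b, Kif19a and Kif27) and 12 lower, against 23.6% and 36.3% of all genes. Kif5c, a conventional kinesin heavy chain, was 1.35, 20.7 and 1.84 CPM in preleptotene-like, early prophase-like and pachytene-like control cells. Kif19a, which shortens microtubules and limits the length of cilia, had 0 counts in early prophase-like cells and 410 counts (10.8 CPM) in pachytene-like cells, at least 6.60-fold higher when the 0 is set at 3 counts.

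Between preleptotene-like and pachytene-like cells most genes of any kind were called, and the members were called about as often. In both libraries 5 members were called higher (Kif3b, Kif6, Kif9, Kif18b and Kif19a) and 18 lower, against 30.5% and 29.8% of all genes higher and 46% and 40% lower in the Tomato-negative and control libraries. By library, 7 members were called higher and 20 lower of 35 in Tomato-negative cells, and 5 and 18 of 34 in control cells. The members' median log2 ratio was -1.27 and -1.24, against -0.73 and -0.29 over all genes. The pachytene-like cells were far deeper than the others (medians of 74744.5 and 47728 UMIs), and scaling on the median gene instead of the total shifted this comparison by 1.09 and 0.95 on the log2 scale. With that scaling 11 members were called higher (Kif2a, Kif2c, Kif3a, Kif3b, Kif6, Kif9, Kif18b, Kif19a, Kif20a, Kif22 and Kif27) and 9 lower (Kif1b, Kif1c, Kif3c, Kif4, Kif5a, Kif5b, Kif7, Kif13b and Kif26a), where 42.2% and 43.5% of all genes were called higher and 33.4% and 28.5% lower. Called lower in both libraries with scaling on the total alone were thus Kif1bp, Kif2b, Kif11, Kif15, Kif16b, Kif18a, Kif21b, Kif23 and Kif24. Called higher in both with scaling on the median gene alone were Kif2a, Kif2c, Kif3a, Kif20a, Kif22 and Kif27.

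Of the 5 members called higher in pachytene-like cells, Kif3b, Kif6, Kif9 and Kif19a are cilium members and Kif18b is a spindle member. Kif3b, which with Kif3a and Kifap3 forms the kinesin-2 motor of outward intraflagellar transport, was 191 CPM in pachytene-like and 17.2 CPM in preleptotene-like Tomato-negative cells (11.1-fold, 9.14 to 13.7), and 245 and 22.7 CPM in control cells (10.8-fold, 8.86 to 13.3). Its partner Kif3a was 189 and 180 CPM, and 231 and 166 CPM, in the same order, and was not called with scaling on the total. With scaling on the median gene both subunits were called higher, so they differed in the size of the ratio. Kif9, a motor of the central pair of the sperm flagellum that mouse sperm need to swim, was 145 and 10.3 CPM in Tomato-negative cells (14.1-fold, 10.96 to 18.5) and 141 and 11.7 CPM in control cells (12.0-fold, 9.16 to 16.1). In the 4 cKO germ classes with at least 30 cells, Kif9 was 4.37 to 5.16 CPM.

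Kif6, a motor known from the cilia of brain ependymal cells, was at most 0.674 CPM in preleptotene-like cells (1 count in the Tomato-negative and 3 in the control library) and 11.2 and 28.3 CPM in pachytene-like cells. The ratios were 66.4-fold (11.8 to 2629.6) and 41.9-fold (14.3 to 204). Kif19a was 8.73 and 10.8 CPM in pachytene-like cells, against 0.338 and 0.674 CPM in preleptotene-like cells. Both were also called lower in differentiating-like than in progenitor-like cells, so each had an early and a late level with a low point between. Kif6 was 2.09 and 6.54 CPM in Tomato-negative differentiating-like and progenitor-like cells, and 1.73 and 5.18 CPM in control. Kif18b, a spindle member of the kinesin-8 group that shortens astral microtubules, was 30.5 and 7.60 CPM in Tomato-negative pachytene-like and preleptotene-like cells, and 24.6 and 7.86 CPM in control.

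Kif7 and Kif24 went the other way among the cilium members. Kif7, the ciliary regulator of Hedgehog signalling, was 0.373 CPM in pachytene-like and 8.61 CPM in preleptotene-like Tomato-negative cells, and 0.632 and 7.64 CPM in control. Kif24, which holds back cilium formation at the mother centriole, was 5.87 and 40.2 CPM, and 16.8 and 57.7 CPM, in the same order. Kif27, a relative of Kif7 linked to motile cilia, was 50.5 CPM in pachytene-like and 35.3 CPM in preleptotene-like Tomato-negative cells, and 79.5 and 53.5 CPM in control. It was not called at this step with scaling on the total. With that scaling 4 of 9 cilium members were called higher and 2 lower in each library, where 30.5% and 29.8% of all genes were called higher and 46% and 40% lower. With scaling on the median gene Kif27 was called higher in both, Kif7 was still called lower, and Kif24 was not.

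Cargo kinesins were low in pachytene-like cells. Of the cargo members with at least 20 counts, 10 of 10 were called lower than in preleptotene-like cells in the Tomato-negative library. In the control library 8 of 9 were, with none called higher in either. Of all genes 46% and 40% were called lower at this step. The median log2 ratios of the cargo members were -3.45 and -2.23. With scaling on the median gene, Kif1b, Kif1c, Kif3c, Kif5a, Kif5b and Kif13b were still called lower in both. Kif5b, the widely expressed conventional kinesin heavy chain, was 5.16 CPM in pachytene-like and 270 CPM in preleptotene-like Tomato-negative cells (0.0191 times, 0.0162 to 0.0224). In control cells it was 26.9 and 362 CPM (0.0742 times, 0.0685 to 0.0803), with 299.9 CPM in early prophase-like cells. The pachytene-like class was made of different clusters in the 2 libraries. Of its 460 Tomato-negative cells 441 lay in a single cluster, and of its 845 control cells 442 and 400 lay in a pair of others. Cell stage and library therefore cannot be told apart in this class, for Kif5b or for any other member. Both Kif5b levels stood under the levels of all earlier classes of their library.

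Kif1b, which carries mitochondria and synaptic vesicle precursors, was 29.9 and 45.6 CPM in Tomato-negative and control pachytene-like cells, against a peak of 360, 377 and 422 CPM in Tomato-negative, cKO and control preleptotene-like cells. Kif13b, a motor for membrane proteins and vesicles, followed a like course, with 13.4 and 24.8 CPM in pachytene-like cells, against 156, 152 and 214 CPM in preleptotene-like cells. Kif16b, which moves early endosomes, was 22.4 and 26.8 CPM in pachytene-like cells, against 54.1, 41.8 and 71.9 CPM in preleptotene-like cells. Thus these 3 cargo motors shared the preleptotene-like peak in all 3 libraries with Kif15, Kif18a and Kif23. The cKO class had 79 cells, and its preleptotene-like cluster held 4 cKO cells without integration. No later cKO germ class could be compared. Kif5a was 0.652 and 3.26 CPM in pachytene-like cells, against 10.8 and 15.3 CPM in preleptotene-like and 42.4 and 42.3 CPM in differentiating-like cells. Kif1c, a vesicle motor, was 0.559 and 0.474 CPM in pachytene-like cells, against 19.9 and 21.1 CPM in preleptotene-like cells.

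Kif5c and Kif26a had their highest germ level in progenitor-like cells. Over stem-like cells, Kif5c was 2.19-fold (1.57 to 3.15) in Tomato-negative and 1.55-fold (1.16 to 2.12) in control progenitor-like cells, and Kif26a 4.33-fold (2.45 to 8.44) and 1.58-fold (1.01 to 2.58), so the call was made in the Tomato-negative library alone. Kif5c was 18.9 CPM in differentiating-like and 76.1 CPM in progenitor-like Tomato-negative cells, 92.8 and 110.2 CPM in cKO and 21.5 and 87.3 CPM in control cells, so in the Tomato-negative and control libraries the later class had 0.248 times (0.215 to 0.285) and 0.246 times (0.21 to 0.288) the earlier level. In preleptotene-like cells it was 1.69, 4.40 and 1.35 CPM in the Tomato-negative, cKO and control libraries. Kif26a, an atypical kinesin that lacks motor activity, was 17.6, 53.5 and 11.6 CPM in the differentiating-like class of the 3 libraries, against 50.1, 56.6 and 39.1 CPM in progenitor-like cells. It had 7 counts in Tomato-negative and 1 count in control pachytene-like cells, and its level in endothelial-like cells (41.9 CPM in Tomato-negative and 44.6 CPM in cKO cells) was near that in progenitor-like cells. Kif26b, its paralog, was at most 2.03 CPM in any class, and Kif28 at most 2.65 CPM, so neither is described further. Kif21a and Kif13a had their highest germ level in stem-like cells, at 23.2, 14.8 and 28.1 CPM for Kif21a.

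Round-like spermatids differed from pachytene-like cells by 5 members called higher in both libraries (Kif1bp, Kif2b, Kif17, Kif21a and Kif27) and 8 lower (Kif6, Kif11, Kif13b, Kif14, Kif15, Kif19a, Kif20b and Kif23). Of all genes 28.6% and 25.1% were called higher and 16.3% and 32.8% lower. With scaling on the median gene, which shifts this step by 0.20 and 0.41 on the log2 scale, the same 5 were higher and 5 lower (Kif6, Kif14, Kif15, Kif19a and Kif20b). Kif15 was 8.90 and 41.7 CPM in Tomato-negative round-like and pachytene-like cells, and 11.3 and 57.7 CPM in control. Kif14 was 4.72 and 16.3 CPM, and 5.77 and 22.0 CPM, and Kif20b 35.7 and 118 CPM, and 24.5 and 108 CPM. These 3 spindle members were thus low in round-like cells of both libraries.

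Kif2b, a kinesin-13 that takes microtubule ends apart, had the highest ratio of the members at this step. It was 404 CPM in round-like and 3.54 CPM in pachytene-like Tomato-negative cells (114-fold, 94.6 to 139), and 625 and 2.18 CPM in control cells (286-fold, 231 to 360). In elongating-like cells it was 388 and 866 CPM, and among cells under 3500 genes 142 and 294 CPM. After thinning to 1000 UMIs per cell, 43.5% (35.5 to 51.7) of 154 control elongating-like cells had a Kif2b UMI, against 1.43% of preleptotene-like and 0.492% of myoid-like cells. At all UMIs these shares were 63.2%, 3.22% and 2.95%, at median depths of 3966, 4471 and 5283 UMIs.

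Outside spermatids Kif2b was at most 10.9 CPM in Tomato-negative, 2.01 CPM in cKO and 17.4 CPM in control classes, beside the Prm1 values given above, which were likewise low in the cKO library. The call of Kif2b as lower in pachytene-like than in preleptotene-like cells rests on these low levels (3.54 against 9.46 CPM, and 2.18 against 7.64 CPM). The part of free haploid RNA in it was not tested.

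The other kinesin-13 genes took other courses. Kif2a was 833 and 778 CPM in pachytene-like cells of the Tomato-negative and control libraries and 641 and 663 CPM in round-like cells. It was 164 and 270 CPM in elongating-like cells, 0.256 times (0.234 to 0.279) and 0.407 times (0.377 to 0.439) the round-like level. Kif2c, which corrects kinetochore attachments, was 277 CPM in elongating-like and 41.4 CPM in round-like Tomato-negative cells (6.70-fold, 5.88 to 7.65), and 336 and 47.5 CPM in control cells (7.08-fold, 6.28 to 7.98). Kif2a was thus highest in pachytene-like and Kif2c in elongating-like cells of both libraries, with Kif2b highest in round-like Tomato-negative and in elongating-like control cells.

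Kif17, a kinesin-2 that in the mouse testis moves the CREM coactivator ACT between nucleus and cytoplasm, was 59.3 CPM in round-like and 3.54 CPM in pachytene-like Tomato-negative cells (16.7-fold, 13.6 to 20.8). In control cells it was 119 and 2.82 CPM (42.4-fold, 34.7 to 52.3). Elongating-like cells held 76.8 and 109 CPM, and cKO germ classes 2.20 to 8.26 CPM. Its promoter window, shown above, carries TGACGT within the palindrome TGACGTCA. The window was set by the RefSeq start and lies inside the GENCODE span of the gene, which starts at chr4:138250435. Sh2d5 overlaps the gene on the same strand, so reads of the 2 genes may mix. Kif27 was 111 and 169 CPM in round-like and 170 and 218 CPM in elongating-like cells, against 50.5 and 79.5 CPM in pachytene-like cells. Kif1bp was 77.7 and 7.36 CPM in round-like and pachytene-like Tomato-negative cells, and 118 and 24.5 CPM in control. Kif21a, a motor known to limit microtubule growth in nerve cells, was 7.14 and 10.5 CPM in round-like cells, against 0.528 and 0.395 CPM.

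**Figure D3:**
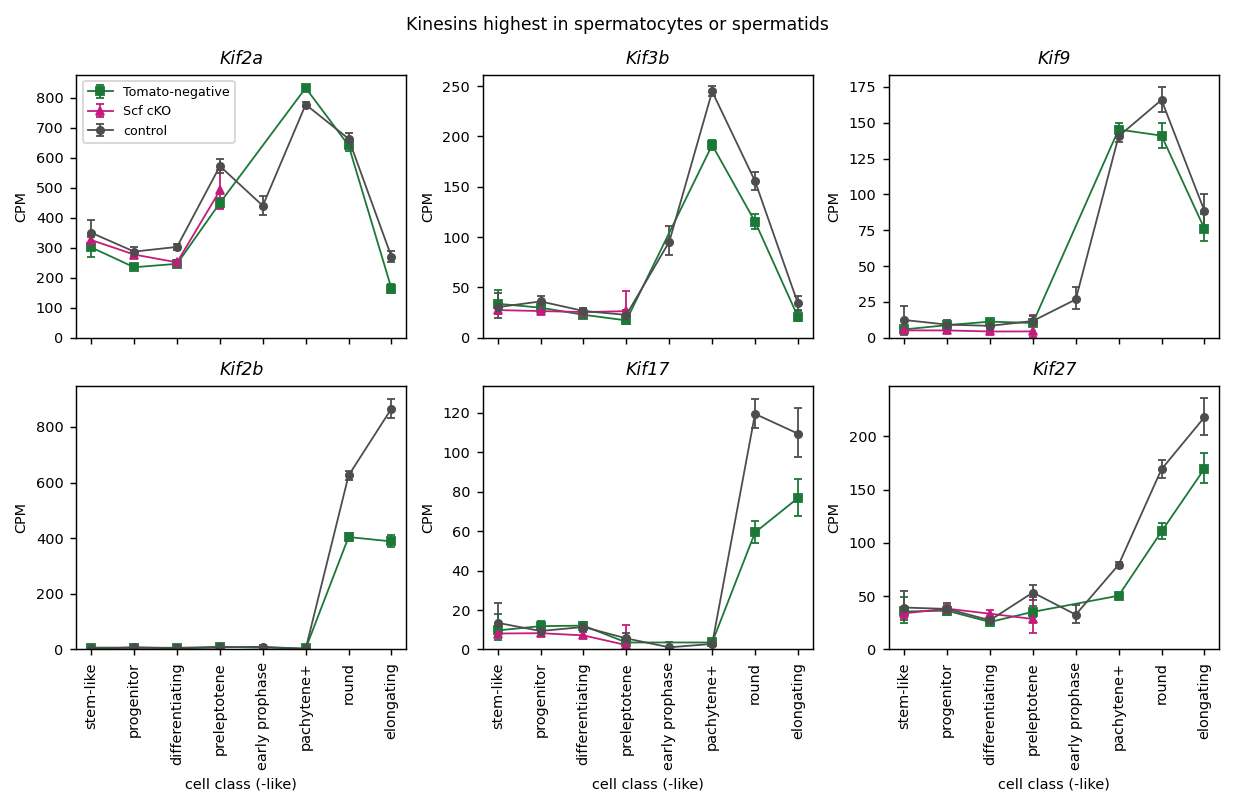
Levels (CPM, y axis) of 6 kinesins across the germ classes (x axis, early to late) in the Tomato-negative, cKO and control libraries, with exact Poisson 95% intervals. Kif2a, Kif3b and Kif9 are up in pachytene-like cells, whereas Kif2b and Kif17 stay at or under 13.5 CPM through the pachytene-like class and then stand at 59.3 CPM or more in spermatids.

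Elongating-like cells had 4 members called higher than round-like cells in both libraries (Kif2c, Kif5c, Kif15 and Kif21b) and 9 lower (Kif1bp, Kif2a, Kif3a, Kif3b, Kif18a, Kif18b, Kif20a, Kif22 and Kif23). Of all genes 25.5% and 15.9% were called higher and 31.4% and 36.6% lower. Scaling on the median gene, a shift of 0.35 and 0.55 on the log2 scale, gave 6 higher, with Kif5b and Kif21a added, and 7 lower, without Kif1bp and Kif2a. Kif5c was 45.3 and 1.75 CPM in Tomato-negative elongating-like and round-like cells (25.8-fold, 14.7 to 49.6) and 38.0 and 2.28 CPM in control cells (16.6-fold, 10.2 to 28.7). Kif21b, a relative of Kif21a, was 27.9 and 4.18 CPM, and 33.4 and 3.73 CPM. Kif15 was 35.3 and 8.90 CPM, and 23.0 and 11.3 CPM. In the opposite direction, Kif3b was 20.9 and 115 CPM, and 34.1 and 156 CPM, and Kif3a 47.1 and 159 CPM, and 67.1 and 223 CPM, so both kinesin-2 subunits were lower in elongating-like cells. Kif18b was 1.76 and 22.5 CPM in Tomato-negative elongating-like and round-like cells, and 0.717 and 20.1 CPM in control. Kif18a was 7.65 and 27.4 CPM, and 5.38 and 27.7 CPM, Kif20a 9.70 and 34.1 CPM, and 3.23 and 29.6 CPM, and Kif23 15.9 and 43.0 CPM, and 11.5 and 43.0 CPM. Kif22, likewise a spindle member, was 0.196 and 0.198 times its round-like level. Kif1a, a neuronal vesicle motor, had 36 counts (10.6 CPM) in Tomato-negative elongating-like cells and 17 counts (6.10 CPM) in control ones, with at most 0.563 CPM in the other germ classes.

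Somatic classes were compared with all other somatic cells of the same library, which differ in make-up between libraries. Over all classes, 26 pairs of a member and a class were called in every library that allowed the comparison. Sertoli-like cells could be described in the Tomato-negative library only, where 7 members were called higher (Kif1a, Kif3b, Kif4, Kif5a, Kif6, Kif9 and Kif21a) and 6 lower (Kif1b, Kif1c, Kif3c, Kif7, Kif13a and Kif21b), against 26% and 20.6% of all genes.

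Kif21a stood out in Sertoli-like cells. It was 532 CPM there (514 to 550), against 21.9 CPM in the other somatic cells of the library (24.3-fold, 20.2 to 29.4). After thinning to 1000 UMIs, 26.9% (23.4 to 30.6) of 602 Sertoli-like cells had a UMI, against 2.06% of 194 myoid-like and 0% of 94 endothelial-like cells. At all UMIs the shares were 63.7%, 14.4% and 0%, at median depths of 7470.5, 8092 and 6035 UMIs. Without called doublets the level was 584 CPM. With finer clusters it was 744 CPM, but the Sertoli-like class then held 258 Tomato-negative cells. Another 375 Tomato-negative cells lay in a cluster nearest to Sertoli cells that stayed unnamed, since it had markers of both germ and somatic classes. All Sertoli-like values given here are of the larger class. Among cells under 3500 genes it was 187 CPM. Sertoli-like classes of the other libraries were too small, and in the cKO library Kif21a was highest in Leydig-like cells at 63.4 CPM.

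Kif4, Kif6 and Kif9 in Sertoli-like cells stood beside germ cell RNA. Kif4 was 35.5 CPM there and 8.94 CPM in other somatic cells, Kif9 17.6 and 6.75 CPM, and Kif6 5.96 and 1.83 CPM. Prm1 (607 CPM) and Ddx4 (58.7 CPM) were both at their highest somatic level of the library in this class, and Mki67 was 53.1 CPM. Without doublets Kif4 was 31.4 CPM and Kif9 18.7 CPM, and among cells under 3500 genes Kif4 was 12.4 CPM (19 counts) and Kif9 17.6 CPM. The part of germ cell RNA in these values was not tested. Kif3b was 53.7 and 20.1 CPM (2.67-fold, 2.15 to 3.34).

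Peritubular myoid-like cells, the contractile cells of the tubule wall, were marked by Kif21b. It was 48.5, 114 and 79.8 CPM in the Tomato-negative, cKO and control libraries, or 12.6-fold (8.52 to 19.0), 7.60-fold (6.54 to 8.89) and 4.19-fold (2.60 to 7.18) the level of the other somatic cells. It was the member called higher there in all 3 libraries, where 11.1%, 8.66% and 11% of all genes were, and it was called lower in vascular smooth muscle-like cells in all 3. There it was 3.05, 11.05 and 12.99 CPM, so the 2 contractile classes differed in it. Of all genes 9.17%, 9.16% and 6.75% were called higher and 27.1%, 9.98% and 7.03% lower in that class. Called lower in myoid-like cells of all 3 libraries were Kif4, Kif11, Kif15, Kif20a, Kif20b, Kif21a and Kif22, where 27.7%, 17.8% and 14.6% of all genes were. Of these 7, 6 are spindle members, and Mki67 was 17.0, 3.08 and 12.4 CPM in this class.

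Kif26a was called higher in endothelial-like cells of both libraries that had enough of them, at 41.9 CPM (33 counts) in Tomato-negative and 44.6 CPM (8 counts) in cKO cells, where 9.63% and 11.2% of all genes were called higher and 19% and 8.43% lower. The ratios to other somatic cells were 7.59-fold (4.82 to 11.8) and 30.3-fold (12.2 to 66.3). The cKO class had 42 cells with integration. Without it, the endothelial-like cluster held 10 cKO cells, under the limit of 30 cells. An immune-like cluster with Ccl5, Gzmc and Cd3g among its top genes then held 31 cKO cells. The cKO value is therefore uncertain. Kif5c was the member called lower in Tcf21 stromal-like cells of all 3 libraries, where 20.3%, 16.9% and 9.42% of all genes were called lower and 7.82%, 5.29% and 5.37% higher. Leydig-like cells had 0 members called the same way in both the Tomato-negative and the cKO library, where 4.91% and 8.97% of all genes were called higher and 7.01% and 16.9% lower. Immune-like cells had Kif5c and Kif21a called lower in all 3 libraries, where 29.3%, 20.4% and 20.2% of all genes were, but 0, 15 and 10 members called higher, where 6.48%, 15.1% and 14.6% of all genes were. Spindle members were among those of the cKO and control libraries alone, with Kif4 at 2.19, 18.7 and 86.9 CPM in the Tomato-negative, cKO and control libraries and Mki67 at 41.6, 141 and 406 CPM.

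Kif5b was present in every somatic class, at 118 to 540 CPM in Tomato-negative, 157 to 431 CPM in cKO and 204 to 507 CPM in control cells. Kif1c in vascular smooth muscle-like cells stood at 92.0, 59.3 and 64.9 CPM, and in myoid-like cells at 59.2, 56.6 and 63.3 CPM. In Tcf21 stromal-like cells it was 22.0, 21.8 and 18.5 CPM. Kif13a, which carries endosomal cargo, was highest in endothelial-like cells of the Tomato-negative library (39.3 CPM) and in vascular smooth muscle-like cells of the control library (71.4 CPM). In myoid-like cells it was 22.0, 27.6 and 32.3 CPM, and in germ classes at most 14.5 CPM. Kif1a was 12.1 CPM in cKO and 5.30 CPM in control Tcf21 stromal-like cells, against 1.70 CPM in Tomato-negative ones.

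**Figure D4:**
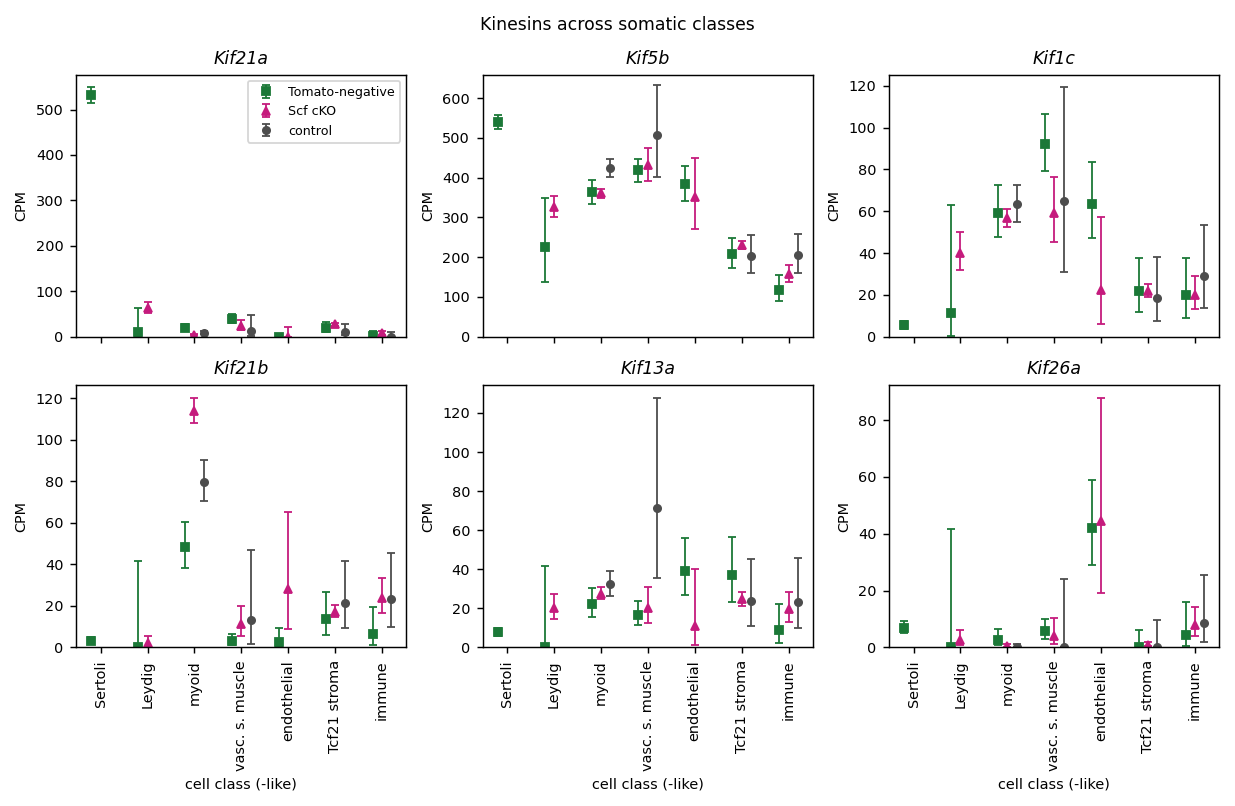
Levels (CPM, y axis) of 6 kinesins in the somatic classes (x axis) of the Tomato-negative, cKO and control libraries, with exact Poisson 95% intervals. Kif21a stands at 532 CPM in Sertoli-like cells and at most 63.4 CPM in other classes, and Kif21b is highest in myoid-like cells of all 3 libraries.

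The cKO and control libraries were compared class by class, to ask which kinesins differ where Sertoli cells lack Scf. In all, 33 pairs of a member and a class were called, and 20 without the differentiating-like class. With 1 library each, mice, sort and preparation cannot be told apart from genotype. In stem-like cells 0 members were called higher and 1 lower, against 1.2% and 3.08% of all genes. In progenitor-like cells 0 were called higher and 2 lower (Kif2b and Kif21b), against 2.65% and 7.58%. In preleptotene-like cells 0 were called higher and 1 lower, against 1.98% and 3.19%. These shares are near those of all genes.

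Kif21b was 5.34 CPM (86 counts) in cKO and 13.6 CPM (68 counts) in control progenitor-like cells (0.394 times, 0.283 to 0.550). Kif24 was 17.6 CPM (8 counts) in cKO and 57.7 CPM (257 counts) in control preleptotene-like cells (0.305 times, 0.130 to 0.610). The cKO class had 79 cells. Kif9 was 5.16 CPM in cKO and 12.4 CPM in control stem-like cells, and Kif2b 0.310 CPM in cKO and 7.57 CPM in control progenitor-like cells. Both are highest in late germ cells, and Prm1 moved with them, at 1.12 and 1.24 CPM in cKO, against 61.9 and 91.3 CPM in control, in these 2 classes.

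In the differentiating-like class 5 members were called higher in cKO (Kif3c, Kif5c, Kif6, Kif19a and Kif26a) and 8 lower (Kif1b, Kif2b, Kif4, Kif5b, Kif7, Kif15, Kif21b and Kif23), against 17.2% and 16.5% of all genes. Kif5c was 92.8 CPM in cKO and 21.5 CPM in control cells (4.32-fold, 3.77 to 4.96). Kif26a was 53.5 and 11.6 CPM (4.62-fold, 3.84 to 5.60), and Kif19a 3.93 and 0.345 CPM (11.4-fold, 4.20 to 43.3). Kif15 was 59.7 CPM in cKO and 157 CPM in control cells (0.379 times, 0.349 to 0.412), and Kif5b 147 and 337 CPM. The cKO cells in this class carried the Kit, Zbtb16 and Gfra1 levels given above, and Mki67 was 329 CPM in cKO and 677 CPM in control. Their place in the class depended on integration. Without it, the differentiating-like clusters held 6 and 0 cKO cells, and a progenitor-like cluster held 2109. This comparison could then not be made. The part of cell state in these values was not tested.

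**Figure D5:**
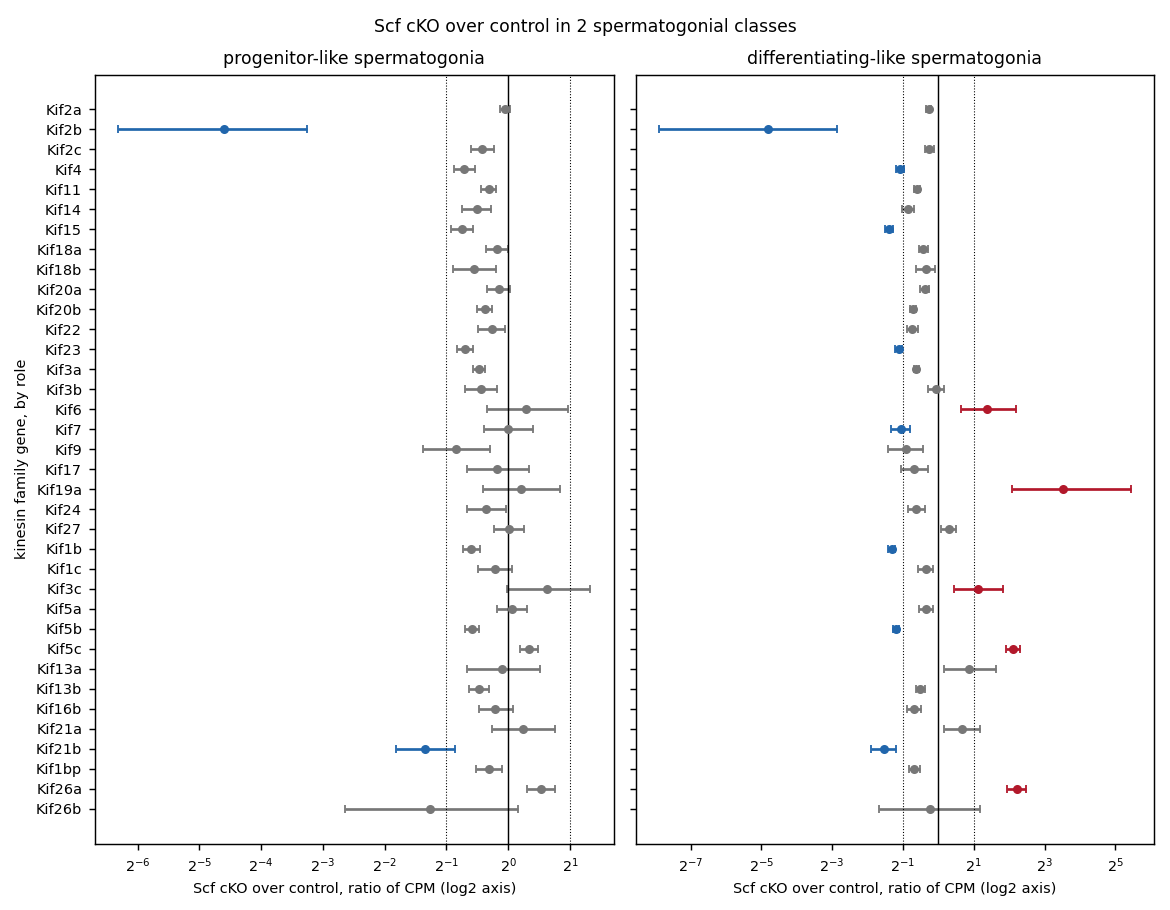
Ratio of CPM, cKO over control (x axis, log2 scale), for kinesin family genes (y axis, by role) in progenitor-like and differentiating-like spermatogonia, with 95% intervals. Red marks members called higher in cKO, blue those called lower, grey the others, and the dotted lines mark 2-fold. Kif2b and Kif21b are called lower in both classes, and Kif5c, Kif19a and Kif26a higher in the differentiating-like class.

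In somatic classes the members called were nearly all lower in cKO. Myoid-like cells had 0 higher and 5 lower (Kif9, Kif15, Kif20a, Kif21a and Kif27), against 3.3% and 6.76% of all genes, Tcf21 stromal-like cells 0 and 4 (Kif18a, Kif20a, Kif20b and Kif22), against 1.72% and 5.37%, and immune-like cells 0 and 5 (Kif4, Kif16b, Kif18a, Kif20b and Kif23), against 7.14% and 7.55%. The vascular smooth muscle-like class had 1 higher (Kif23) and 1 lower (Kif13a), against 3.05% and 2.65%. The Kif23 call rests on an absence of counts in the 39 control cells. Most members called in these somatic classes are spindle motors. Kif20b was 10.7 CPM (88 counts) in cKO and 34.4 CPM (13 counts) in control Tcf21 stromal-like cells (0.312 times, 0.173 to 0.609), and 31.0 and 92.7 CPM in immune-like cells (0.334 times, 0.207 to 0.545). Kif20a was 0.770 CPM (9 counts) in cKO and 4.97 CPM (16 counts) in control myoid-like cells. Mki67 was 3.08 and 12.4 CPM in cKO and control myoid-like, 14.2 and 60.9 CPM in Tcf21 stromal-like and 141 and 406 CPM in immune-like cells. Of the proliferation genes measured, 3 of 6, 5 of 6 and 5 of 7 were called lower in cKO in these classes and none higher. Prm1 was likewise lower in cKO, as given above. The part of dividing cells and of germ cell RNA in these kinesin calls was not tested.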

How the data were processed

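Cells of 3 libraries (10x 3′ chemistry) were analysed. Each deposited table gives raw UMI counts, not normalized, with genes in rows. Per the labels and the submitters' processing notes, the authors used Cell Ranger 2.1.1, GRCm38 and Seurat 3.1. The file of the Tomato-negative library also holds all 6264 control cells with the same values (0 differing values over 29872 genes) and 149 cells with cKO barcodes, and each cell was used once. Total depth was 195380762 UMIs for Tomato-negative, 68602272 for cKO and 90453018 for control cells.

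Kept were cells with over 200 and under 7500 genes and under 10% mitochondrial counts, which leaves 11209 cells of the merged file, against 5826 with the stated limit of 3500 genes. The libraries were joined by anchor integration (Seurat 5.3.0, R 4.3.3; 1996 variable genes without kinesins and partner genes, 25 components, resolution 0.8). A cluster was named from its mean marker score. Among classes of the same compartment (germ or somatic) within 0.9 of the highest score, the one with most markers among the cluster's 10 top genes was taken. A cluster stayed unnamed with under 3 markers seen in 10% of its cells, with low depth and no such marker, or where a class of the other compartment scored 0.5 of the highest or more. These thresholds were chosen after the data had been seen. Doublets, called with Scrublet in scanpy 1.11.5 (329 Tomato-negative, 335 cKO and 214 control cells), were left in.

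Counts were summed per class and library and given as CPM with exact Poisson 95% intervals. Ratios have exact conditional binomial intervals and shares Clopper-Pearson intervals. A count of 0 was bounded at 3 counts. The ratio step was run on simulated Poisson counts, the model its intervals assume. That run holds no variation between cells, mice or class names, so it does not test the calls against these. UMIs of 1 library are not replicates, and every interval covers counting error only. Members called in both libraries were named at each step, most of them with values, and members at very low levels (Kif26b and Kif28) only by their highest value. Partner genes were named only where called in both, except that Mki67, like Prm1 and Ddx4, was given as a marker whatever its call. The members and gene lists were chosen with earlier results of these data known. Alternatives were other cell limits, clusterings, scalings, count minimums, folds and thinning to 1000 UMIs.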

Additional observations from a re-analysis of the deposited data

Results flagged for a closer look

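The calls of Kif23, cKO over control, had opposite directions in different classes, and this difference was not tested. It was 0.459 times the control level in the cKO differentiating-like class (102 and 222 CPM) and 0.3836 times in immune-like cells (38.9 and 101 CPM), but at least 1.34-fold higher in vascular smooth muscle-like cells, where 26 counts stood in cKO and 0 in control cells and the 0 was set at 3 counts. The control class had 39 cells.

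Beyond the genes chosen by name, the pseudogene entry Kif4-ps was 29.3 CPM in Tomato-negative and 44.32 CPM in control pachytene-like cells, where Kif4 itself was 4.04 and 2.92 CPM. The antisense entry Kif16bos was 56.5 CPM in Tomato-negative and 43.4 CPM in control elongating-like cells, where Kif16b was 7.94 and 5.02 CPM. Both entries lie outside the genes described in the report.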

How the results depend on the processing

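The counts of members called in both libraries were 1, 6, 9, 12, 18, 23, 13 and 13 for the 8 stage comparisons (progenitor over stem-like, differentiating over progenitor, preleptotene over differentiating, early prophase over preleptotene, pachytene over early prophase, pachytene over preleptotene, round over pachytene, elongating over round), 26 for somatic and 33 for genotype pairs. Progenitor over stem-like became 2 at resolution 1.2 and with classes set cell by cell from markers, 0 with thinned cells and at 50 counts, and 4 at 1.5-fold. Differentiating over progenitor became 0 among cells under 3500 genes, 12 without integration, 2 when thinned and 14 at 1.5-fold. Preleptotene over differentiating became 3 at resolution 1.2, 4 cell by cell and 19 at 1.5-fold. Early prophase over preleptotene became 2 cell by cell, 4 when thinned and 19 at 1.5-fold. Thinning gave 11, 13, 5 and 4 for the last 4 stage comparisons and 11 genotype pairs, which were 19 at 50 counts, 61 at 1.5-fold and 20 without the differentiating-like class. Fewer UMIs and fewer counts above the minimum enter a thinned comparison, and for the other settings the cause was not tested. The Kif2b share in control elongating-like cells (43.5%) was 63.2% at all UMIs, 54.2% at 2000 UMIs, 30.8% under 3500 genes, 30.7% without integration and 32.0% cell by cell. The Kif21a share in Sertoli-like cells (26.9%) was 63.7% at all UMIs, 42.9% at 2000, 16.4% under 3500 genes, 33.8% under 5% mitochondrial counts and 45.6% at resolution 1.2. Of 396 single levels recomputed, 276 stayed within their counting interval and 120 moved. Adding the 1149 Tomato-negative, 21 cKO and 148 control cells of 7500 or more genes, chosen after seeing the data as was the count without the differentiating-like class, moved no count of calls by over 1.5 times. With these cells added, 11 single levels moved and 41 stayed. Named cell by cell, 610 of the Tomato-negative ones were pachytene-like and 443 round-like, against 460 and 171 kept. Among the control ones these were 109 and 35, against 845 and 218 kept. Comparisons whose class fell under 30 cells gave no value, among them the pachytene-like ones under 3500 genes and the stem-like one without integration. Without integration this also held for the cKO differentiating-like, preleptotene-like and endothelial-like classes. No paired analysis was possible because each condition has 1 library. Depth limits the classes with few cells: 1 count was worth up to 11.3 CPM in Tomato-negative Leydig-like cells.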

Other observations

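The partners of these motors were not all high in the same classes. Kifap3, the accessory subunit of Kif3a and Kif3b, was 242 and 360 CPM in round-like cells of the Tomato-negative and control libraries, against 69.5 and 102 CPM in pachytene-like cells, so it peaked a class later than Kif3b. Of 13 intraflagellar transport genes 7 were called higher in pachytene-like than in preleptotene-like Tomato-negative cells and 8 in control cells, with none lower. Of all genes 30.5% and 29.8% were called higher at this step and 46% and 40% lower. From round-like to elongating-like cells 10 and 11 of the 13 were called lower and 1, Ift172, higher. Of all genes 31.4% and 36.6% were called lower there and 25.5% and 15.9% higher. Ift172, which turns the transport trains at the tip, was 646 CPM in elongating-like and 106 CPM in round-like Tomato-negative cells, and 762 and 128 CPM in control.

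Among dynein and dynactin genes, Dctn2, a dynactin subunit, was 621 and 655 CPM in pachytene-like cells, against 87.7 and 75.0 CPM in preleptotene-like cells. Dynll2, a dynein light chain, went the opposite way, with 13.6 and 14.5 CPM in pachytene-like cells, against 327 and 357 CPM in preleptotene-like cells, and 839 and 913 CPM in round-like cells. Klc3, a kinesin light chain known from sperm tails, was 64.1 and 85.0 CPM in elongating-like cells, against 0.539 and 0.481 CPM in round-like cells. Of 4 C-terminal kinesins Kifc3 was called higher in pachytene-like than in preleptotene-like cells of both libraries, at 23.5 and 25.5 CPM, against 1.86 and 0.899 CPM, and the other 3 lower. Of all genes 30.5% and 29.8% were called higher at this step and 46% and 40% lower.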
